A study of Danio rerio with 6 samples.

Results

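The 47 Hox cluster genes described here were chosen by name: every gene whose symbol in the platform annotation of the array began with hox, a cluster letter from a to d and a paralogue number. They stood among 14434 named genes, and 100 of the 45220 features on each array were listed for them. Where a gene had several features, the one with the highest 6-array mean stood for it. The RefSeq annotation of the zebrafish genome (GRCz12tu) holds 49 protein-coding Hox genes in 7 clusters. All of the *hoxaa* (7 genes), *hoxab* (5), *hoxba* (11), *hoxca* (11) and *hoxcb* (4) clusters were on the list, with 3 of 4 genes of *hoxbb* and 6 of 7 of *hoxda*. *hoxb1b* and *hoxd9a* were not listed as the only symbol of any feature and are not analysed here.

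Expression was measured on 1-colour Agilent arrays in whole AB strain embryos at sphere stage, a blastula stage that precedes gastrulation. Embryos of the *ndr1*-injected group had received 50 pg of mRNA for *ndr1*, a Nodal ligand gene, in 1 nl, and control-injected embryos had received 1 nl of water, per the labels. Groups follow the labels, although for injections in general the study's methods state another amount and a control of *egfp* mRNA. Each group held 3 samples of RNA from 200 embryos, and no label tells whether they were separate clutches. The p-values therefore cover only the spread among these 6 samples, which may be technical. An mRNA injected into the embryo is not confined to the cells that normally make it, and the control injection differed in holding no mRNA.

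Hox genes encode homeodomain transcription factors that give cells their identity along the head-to-tail axis. They lie in clusters, and genes at the anterior end of a cluster (low paralogue numbers) are switched on earlier and closer to the head than genes at its posterior end, a rule known as collinearity. In zebrafish the first Hox transcripts appear around the onset of gastrulation, and Cdx proteins, retinoic acid, Wnt and Fgf signals from the margin and tail bud then turn the clusters on. Polycomb complexes keep Hox genes silent where they are not used, and Trithorax proteins keep them active where they are. Nodal signals such as Ndr1 induce the mesendoderm of the margin, from which several of these Hox-inducing signals come.

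Array medians were 8.70 to 8.71 in log2 signal. Over all features, arrays correlated with each other at 0.920 to 0.926 within the *ndr1*-injected group, at 0.836 to 0.886 within the control-injected group and at 0.820 to 0.928 between the groups. Deviations of neighbouring features from the median array were correlated (r = 0.509 for consecutive features and 0.527 for features 85 apart, averaged over arrays), so nearby features shared part of their deviation. No layout was used for this: a grid 85 columns wide was inferred from these same correlations, and every value called position-subtracted rests on it. For such values the local deviation was subtracted over windows of 9 by 9 features. The subtraction moved the array medians to 8.76, 8.64 and 8.74 in the *ndr1*-injected arrays and to 8.62, 8.59 and 8.50 in the control-injected arrays. Position-subtracted differences were not re-centred on these medians, so they include this shift between the groups. *ndr1* itself stood at 13.79, 14.85 and 13.89 in the *ndr1*-injected arrays and at 10.61, 10.10 and 10.87 in the control-injected arrays, higher in all 3 *ndr1*-injected arrays. Across all 14434 genes, limma called 3 at an adjusted p below 0.05 (Benjamini-Hochberg), all higher in *ndr1*-injected embryos. The injected gene *ndr1* was not among them, although it differed by 3.65 ± 0.37 log2 units (moderated SE, limma, adjusted p = 0.066). The threshold thus missed this difference, while *gsc*, described further on, passed with a smaller difference and a smaller SE (3.24 ± 0.26, limma, adjusted p = 0.0401).

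Signals of the Hox genes lay low on these arrays in both groups. Levels are given as log2 signal minus the median of all features on the same array. The median Hox level was -0.42, -0.38 and -0.31 in the *ndr1*-injected arrays and -0.14, -0.26 and 0.06 in the control-injected arrays. All 3 *ndr1*-injected values were lower than all 3 control-injected values, and group means were -0.37 ± 0.05 and -0.11 ± 0.16 (SD, n = 3 each). With position subtracted the medians were -0.28, -0.27 and -0.12 in the *ndr1*-injected arrays and -0.07, -0.15 and 0.15 in the control-injected arrays, and the groups overlapped. In whole embryos, fewer cells with a transcript and less of it per cell cannot be told apart.

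Averaged over all 6 arrays, the median Hox gene stood at -0.16, at percentile 30.7 of all named genes, whose median was 0.71. Of the 47 genes, 19 had a mean level above the array median and 3 were more than 1 log2 unit above it. Above the array median in all 6 arrays were 4 genes (8.51%), against 47.5% of all named genes. They were *hoxb6a*, *hoxa1a*, *hoxa11b* and *hoxc11a*. Of these, *hoxc11a* passed narrowly, at 8.712 in control-injected replicate 1 against an array median of 8.704. Its other features had mean levels of -0.59 and -0.80. Below it in all 6 arrays were 8 genes (17.02%), against 16.5% of all named genes, and they were *hoxa9b*, *hoxa11a*, *hoxa13b*, *hoxb3a*, *hoxb8a*, *hoxc13b*, *hoxd3a* and *hoxd11a*. The remaining 35 crossed the median between arrays. With position subtracted, 12 genes lay above the median in all 6 arrays. The share of all named genes was not counted in that setting, so the higher count is not read as a trait of Hox genes. No detection calls or background values were used here, so a low signal is not a statement that a transcript was absent, and a probe's brightness also depends on its sequence.

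**Figure D1:**
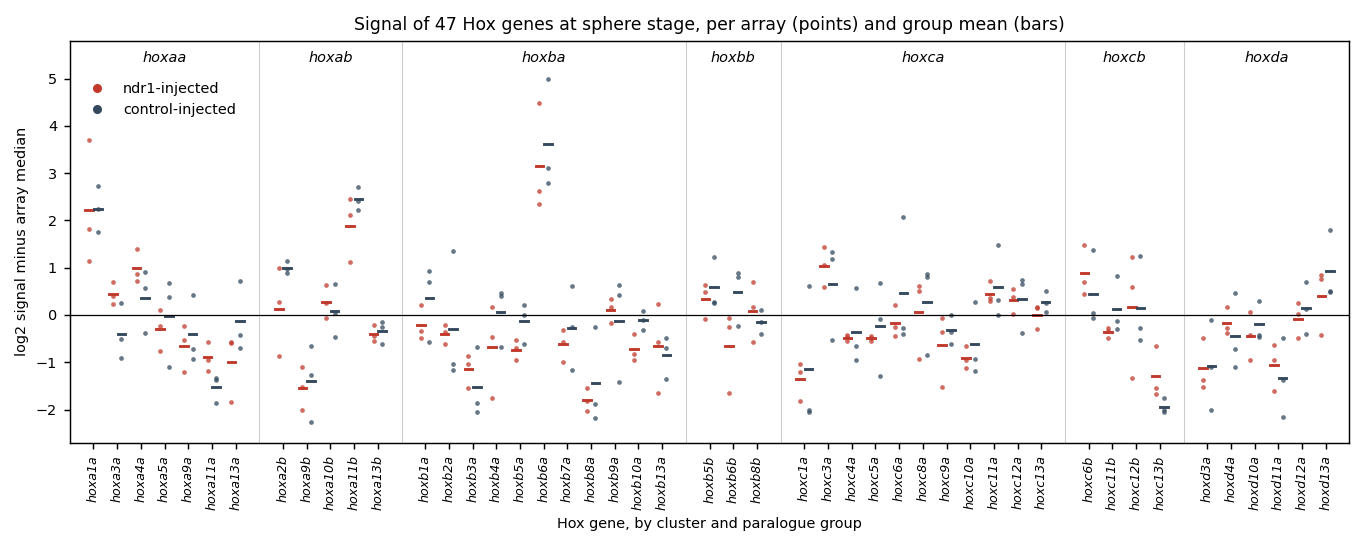
Log2 signal minus array median (vertical axis) of the 47 Hox genes, ordered by cluster and paralogue group (horizontal axis), with 1 point per array and a bar at each group mean, *ndr1*-injected in red to the left and control-injected in blue to the right. Most genes scatter around 0, and *hoxb6a*, *hoxa1a* and *hoxa11b* are the only genes with a mean over all 6 arrays more than 1 above it.

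Lists of genes with a known time of use placed these levels on the same scale. Genes that blastulae transcribe (blastula zygotic list) had a median level of 3.03, and 17 of 19 lay above the array median in all 6 arrays. Markers of differentiated tissues that sphere-stage embryos do not have, such as muscle, pancreas and photoreceptors, had a median level of -0.42, with 3 of 39 above the array median in all arrays. Genes of the segmentation stage list had a median of -0.61 (3 of 21 above in all arrays). The Hox median of -0.16 thus lay nearer to the lists of later genes than to the blastula list. Among differentiated markers *ins*, the insulin gene, nevertheless reached 2.32 above the array median, so single bright features occurred outside the Hox list too.

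Other homeobox families of the same class also had medians below the array median. Most of their genes had 1 feature, while 33 of the 47 Hox genes had several, of which the brightest was used. The other lists were not summarised with the mean of features. The ParaHox genes, the sister group of the Hox genes, had a median of -0.69 (6 of 6 measured), and the other Antennapedia-class homeobox genes had a median of -0.25 (43 of 49 measured), with *dbx2*, a neural tube gene, at 5.28. Homeobox genes of the organizer and mesendoderm, used before gastrulation, had a median of 1.26 (10 of 11 measured). That value averages both groups, which differed: array medians of this list had a mean of 2.17 in *ndr1*-injected and 1.02 in control-injected arrays. A level compares probes as well as transcripts, so these medians describe the signals on the array. Some lists shared genes, such as the Cdx genes, which stood in the ParaHox list and in the list of Hox inducers described further on.

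**Figure D2:**
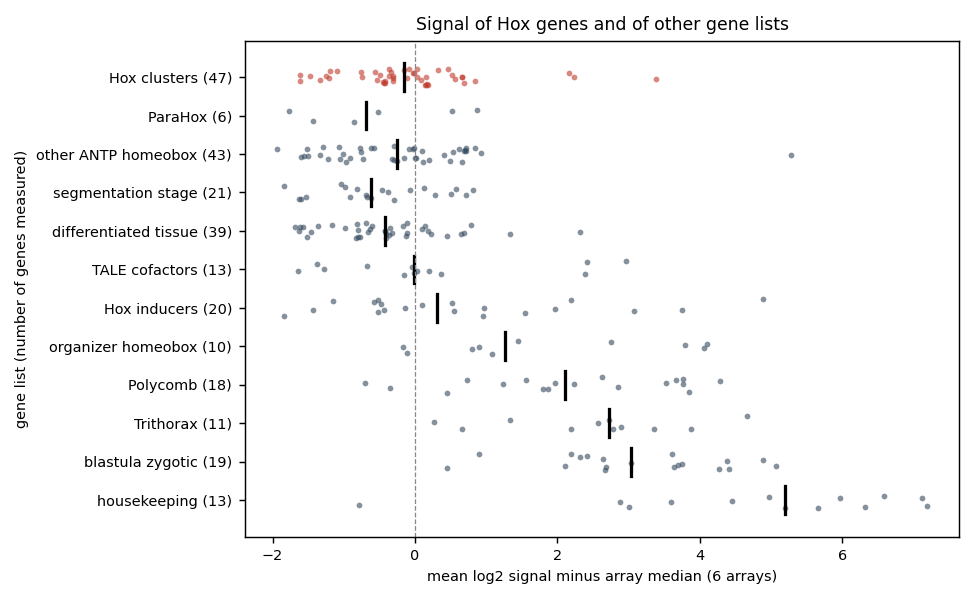
Mean log2 signal minus array median over 6 arrays (horizontal axis) for each measured gene of 12 lists (vertical axis, number of genes in brackets), Hox genes in red, with a bar at each list's median. The Hox median of -0.16 lies beside those of later genes (-0.61 and -0.42) and left of the blastula zygotic (3.03) and housekeeping (5.20) lists.

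The brightest Hox gene was *hoxb6a*, a trunk gene of the central group. Its signal was 13.18, 11.33 and 11.05 in the *ndr1*-injected arrays and 13.69, 11.80 and 11.49 in the control-injected arrays. The replicate 1 array was the highest in both groups and the groups overlapped. It had 1 feature, a mean level of 3.38 above the array median (percentile 88.4) and a difference of -0.47 ± 0.75 log2 units, *ndr1*-injected minus control-injected (moderated SE, limma, adjusted p = 0.855), and -0.63 ± 0.75 with position subtracted.

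*hoxa1a* belongs to the anterior end of its cluster. It had 12.40, 10.53 and 9.84 in the *ndr1*-injected arrays and 10.46, 11.43 and 10.94 in the control-injected arrays, and the *ndr1*-injected arrays held both the highest and the lowest value. The difference was -0.02 ± 0.64 (adjusted p = 0.994), and -0.30 ± 0.63 with position subtracted. Its second feature was dim, at 8.37, 8.80 and 8.25 in the *ndr1*-injected arrays and 7.95, 9.54 and 8.0 in the control-injected arrays, and lay at -0.22 against the array median where the first lay at 2.23.

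*hoxa11b*, a posterior gene known for its part in fin bud development, had 11.15, 10.81 and 9.81 in the *ndr1*-injected arrays and 11.42, 11.10 and 10.93 in the control-injected arrays. The *ndr1*-injected arrays spread more widely, and the groups overlapped. Its difference was -0.56 ± 0.38 (adjusted p = 0.756), and -0.26 ± 0.36 with position subtracted. Here too the second feature was dim, at -1.30 against 2.17 for the first. For both genes the features disagreed on level by more than 2 log2 units, so neither level rests on more than 1 feature.

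**Figure D3:**
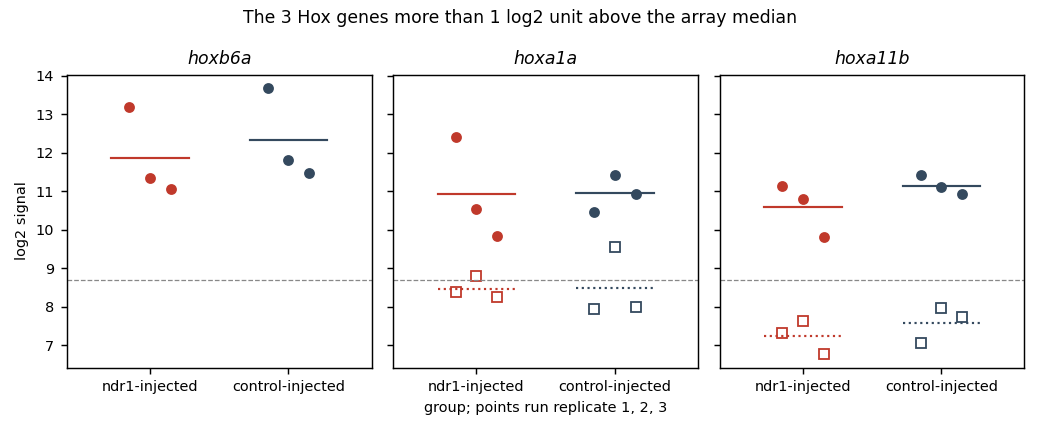
Log2 signal (vertical axis) of the 3 Hox genes more than 1 log2 unit above the array median, in *ndr1*-injected (left, red) and control-injected (right, blue) arrays in order of replicate 1, 2 and 3. Filled circles are the feature used and reach 13.69 in *hoxb6a*, open squares the second feature of *hoxa1a* and *hoxa11b*, around or below the median, with group means as solid and dotted lines and the array median dashed.

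The next brightest genes were *hoxc3a* and *hoxa4a*. *hoxc3a*, whose counterpart mammals no longer have, had 9.29, 9.76 and 10.15 in the *ndr1*-injected arrays and 8.18, 10.03 and 9.89 in the control-injected arrays, a mean level of 0.85 and a difference of 0.37 ± 0.52 (-0.05 ± 0.20 with position subtracted). One control-injected array was low and the others lay within the *ndr1*-injected range. The other features of *hoxc3a* had mean levels of -0.37, -1.88 and -2.03, with differences of -0.78, -0.10 and -0.33. *hoxa4a* had 9.57, 9.44 and 10.10 in the *ndr1*-injected arrays and 8.33, 9.62 and 9.26 in the control-injected arrays, again with overlap. Its difference was 0.63 ± 0.38, and 0.06 ± 0.20 with position subtracted. The other features of *hoxa4a* had mean levels of 0.43 and -1.03, with differences of 0.80 and -0.49.

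The dimmest genes were *hoxb8a*, *hoxc13b*, described further on, and *hoxa9b*, with mean levels of -1.62, -1.61 and -1.47. *hoxb8a*, a gene of the trunk neural tube, had 7.16, 6.67 and 6.88 in the *ndr1*-injected arrays and 6.52, 8.44 and 6.82 in the control-injected arrays. *hoxa9b*, a posterior gene, had 6.70, 7.18 and 7.60 in the *ndr1*-injected arrays and 7.44, 6.44 and 8.05 in the control-injected arrays. In both genes the control-injected arrays held the highest and the lowest value.

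In all, 33 Hox genes had several features, 86 together, and 14 had 1. Within a gene the features differed in level by a median of 1.25 log2 units and by up to 3.46. Of the 100 Hox features 79 lay below the array median, and their median was -0.76. The choice of the brightest feature thus sets the Hox levels given above, and with the mean of all features of a gene the Hox medians were -0.73 in *ndr1*-injected and -0.69 in control-injected arrays.

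Whether excess Ndr1 changed Hox signals at sphere stage was asked gene by gene in the fit over all 14434 genes. Calls at an adjusted p below 0.05 numbered 0 of 47 Hox genes (lowest adjusted p = 0.712, limma), where 0.0208% of all genes were called. At an unadjusted p below 0.05 there were 2 Hox genes (4.26%), against 6.93% of all genes: *hoxa3a* was higher in *ndr1*-injected embryos (4.34% of all genes) and *hoxb10a* was lower (2.59% of all genes). With position subtracted, 0 of 47 passed the unadjusted threshold, against 4.21% of all genes with higher and 1.68% with lower values (5.89% together), and 0 of 47 were called where 0.111% of all genes were. An intensity trend with robust variance and array weights each also called 0 Hox genes, where 27 and 5 of all 14434 genes were called.

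The differences ran between -1.14 and 0.84 log2 units with standard errors of 0.24 to 0.75 (median 0.43). The upper limit of the 95% interval lay below 2 log2 units for all 47 genes, and the lower limit lay above -2 for 42 of them. Within 1 log2 unit on both sides lay 3 intervals. These intervals assume that errors are independent of array position. In this fit, changes of less than 1 log2 unit could not be told from no change for most members. With position subtracted the median standard error was 0.24, and the number of arrays also limits the precision.

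**Figure D4:**
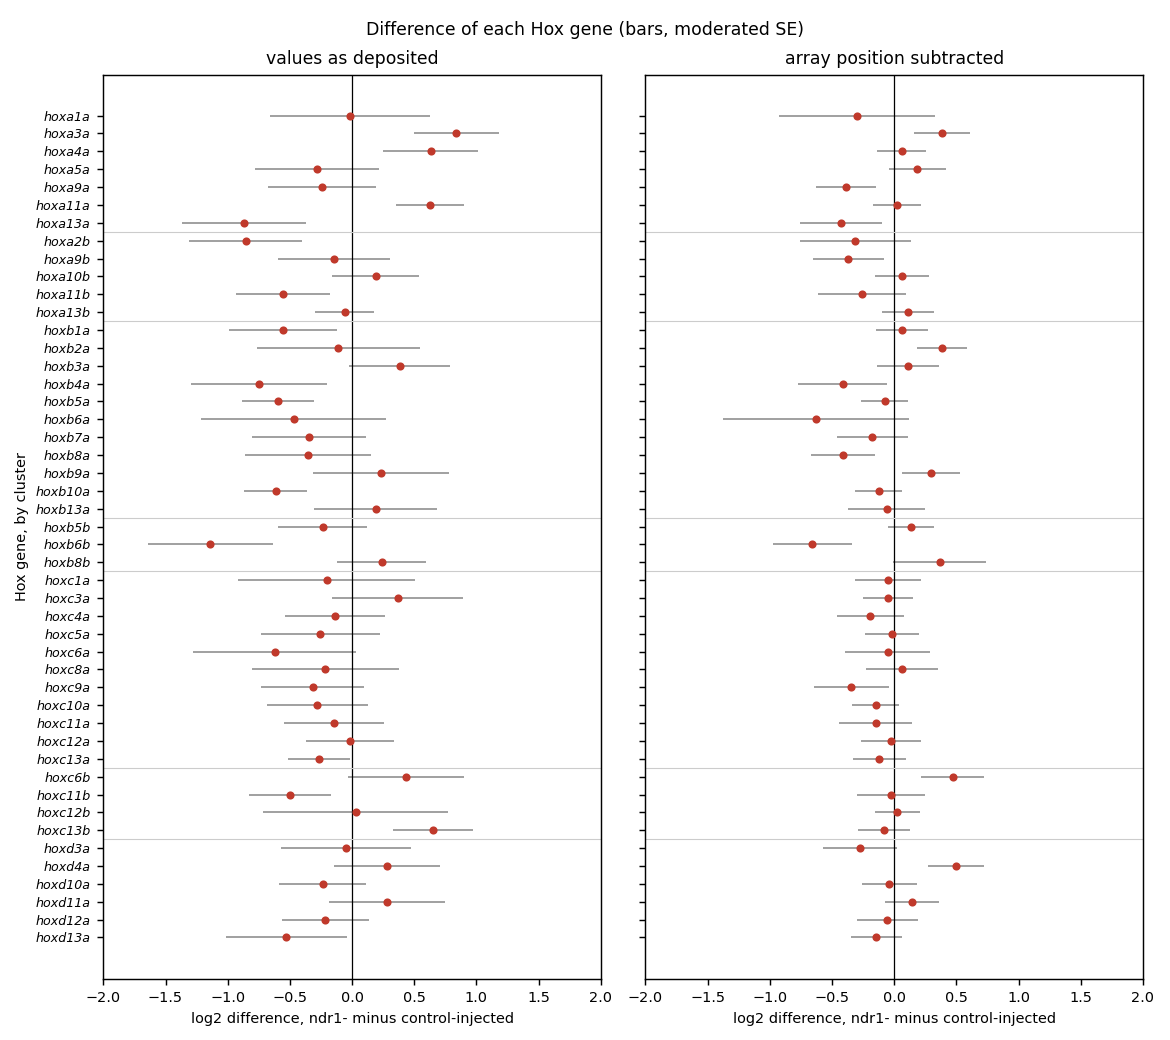
Difference in log2 signal, *ndr1*-injected minus control-injected (horizontal axes), of each of the 47 Hox genes in cluster order (vertical axis), as deposited (left panel) and position-subtracted (right panel), with bars of 1 moderated SE. Deposited differences run between -1.14 and 0.84 and position-subtracted ones between -0.66 and 0.50.

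*hoxa3a*, of the anterior group that patterns hindbrain and pharyngeal arches, had 9.41, 9.11 and 8.93 in the *ndr1*-injected arrays and 8.20, 7.78 and 8.95 in the control-injected arrays. One control-injected value lay just above the lowest *ndr1*-injected value. Its difference was 0.84 ± 0.34 (limma, unadjusted p = 0.044, adjusted p = 0.712), and 0.39 ± 0.23 with position subtracted. Its other features differed by -0.18 (SE 0.52) and 0.78 (SE 0.39).

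*hoxb10a*, a posterior gene whose counterpart mammals no longer have, had 7.88, 7.75 and 8.30 in the *ndr1*-injected arrays and 8.39, 8.60 and 8.78 in the control-injected arrays. All *ndr1*-injected values were below all control-injected values, and p was 0.1 in an exact permutation test (two-sided), the smallest that 3 against 3 arrays allow. The difference was -0.61 ± 0.25 (unadjusted p = 0.044, adjusted p = 0.712). With position subtracted it was -0.13 ± 0.19, the values were 8.35, 8.15 and 8.33 in the *ndr1*-injected arrays and 8.30, 8.50 and 8.40 in the control-injected arrays, and the groups overlapped. The second feature of the gene differed in the same direction, by -0.60 (SE 0.54). The third feature stood the other way, 0.66 log2 units higher in *ndr1*-injected arrays (SE 0.34).

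Groups did not overlap for 2 genes with higher *ndr1*-injected values, *hoxa11a* and *hoxc13b* (4.26%, against 8.11% of all genes), and for 1 with lower values, *hoxb10a* (2.13%, against 5.86%). *hoxa11a* had 7.53, 8.13 and 7.76 in the *ndr1*-injected arrays and 6.85, 7.33 and 7.37 in the control-injected arrays, a difference of 0.62 ± 0.27, and 0.02 ± 0.19 with position subtracted. *hoxc13b*, a posterior gene of the tail, had 7.16, 7.03 and 8.05 in the *ndr1*-injected arrays and 6.69, 6.66 and 6.95 in the control-injected arrays, a difference of 0.65 ± 0.32 that became -0.08 ± 0.21. Both genes lay more than 1 log2 unit below the array median in every control-injected array. After subtraction the groups of other genes did not overlap: *hoxb2a*, *hoxb5b* and *hoxd4a* were higher (6.38%, against 7.87% of all genes) and *hoxa9a* was lower (2.13%, against 4.54%).

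Among the features that stood for the genes, the largest difference belonged to *hoxb6b*, the duplicate of *hoxb6a*. It had 7.07, 8.45 and 8.64 in the *ndr1*-injected arrays and 8.47, 9.59 and 9.52 in the control-injected arrays, so that the highest *ndr1*-injected value lay above the lowest control-injected one. The difference was -1.14 ± 0.50 (adjusted p = 0.712), and -0.66 ± 0.32 with position subtracted. No other feature that stood for a gene differed by 1 log2 unit or more, and with position subtracted none did. Features not used differed more in *hoxb4a* (-1.73, SE 0.67) and *hoxc8a* (-1.47, SE 0.64), where the used ones gave -0.75 and -0.21. With position subtracted the unused ones gave -0.87 and -1.06. An unused feature of *hoxd4a* was also lower by just over 1 log2 unit, where the used one gave 0.28. In a fit over features, 0 of 100 Hox features were called (lowest adjusted p = 0.726, limma).

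*hoxa13a*, a posterior gene of fin and tail, had 6.86, 8.12 and 8.14 in the *ndr1*-injected arrays and 9.42, 8.29 and 8.02 in the control-injected arrays (-0.87 ± 0.50, and -0.43 ± 0.33 with position subtracted). *hoxa2b*, known for the identity of the second pharyngeal arch, had 9.70, 7.84 and 8.98 in the *ndr1*-injected arrays and 9.83, 9.58 and 9.67 in the control-injected arrays (-0.86 ± 0.46, and -0.31 ± 0.45 with position subtracted). This feature had a mean level of 0.56. The other features of *hoxa2b* had mean levels of 0.42 and -1.01, with differences of 0.24 (SE 0.73) and 0.02 (SE 0.27). The arrays farthest from the rest were the first of each group in *hoxa13a* and the second *ndr1*-injected one in *hoxa2b*, and in both genes the groups overlapped.

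Of the 47 differences 33 were below 0 (70.2%), against 49.5% of all genes, and their median was -0.21 against 0.01 over all genes. With position subtracted 30 were below 0 (63.8%), against 43.9% of all genes, and the median was -0.05 against 0.05 over all genes. The subtraction raised the *ndr1*-injected array medians above the control-injected ones, which enters these differences. Against the array medians of that setting the median Hox level was -0.22 in *ndr1*-injected and -0.02 in control-injected arrays, beside -0.37 and -0.11 as deposited. The part of a Hox gene's difference that the position subtraction removed correlated with its deposited difference at r = 0.794 across the 47 genes. That part is contained in the deposited difference, so a positive correlation is partly built in. The genes also share the arrays and are not independent, and a cause was not tested. Without the control-injected replicate 3 array the median difference was -0.02, in place of -0.21. Across genes with several features, all features shared the sign of the difference in 12 genes and did not in 21.

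Along the clusters neither level nor difference followed the paralogue order. Spearman's rho between paralogue number and level was -0.110 over the 47 genes, and between paralogue number and difference it was -0.023 (-0.118 with position subtracted), given as descriptions. The anterior genes (groups 1 to 4, 13 genes) had a median level of -0.31, the central genes (5 to 8, 12 genes) -0.05 and the posterior genes (9 to 13, 22 genes) -0.34. Median differences were -0.05 in the anterior, -0.31 in the central and -0.18 in the posterior genes as deposited, and -0.05, -0.03 and -0.07 with position subtracted.

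Paralogue group 1, the first in collinear order, had 3 members on the array. *hoxb1a*, which marks the fourth rhombomere of the hindbrain later on, had 8.22, 8.92 and 8.36 in the *ndr1*-injected arrays and 9.40, 8.14 and 9.64 in the control-injected arrays. Its values lay around the array median, the groups overlapped, and its difference of -0.56 ± 0.43 was 0.06 ± 0.21 with position subtracted. *hoxc1a*, another gene without a mammalian counterpart, had 7.67, 6.89 and 7.49 in the *ndr1*-injected arrays and 6.66, 9.31 and 6.69 in the control-injected arrays. Its single high value was in the second control-injected array and came to 7.85 with position subtracted. Of the 3 members *hoxa1a* alone, described above, was above the array median in all 6 arrays.

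By cluster, median levels lay between -0.42 (*hoxba*) and 0.18 (*hoxab*), and every cluster held genes on both sides of the array median. In *hoxca* 10 of 11 genes were lower in *ndr1*-injected embryos, in *hoxba* 8 of 11, in *hoxab* 4 of 5, in *hoxaa* 4 of 7, in *hoxda* 4 of 6 and in *hoxbb* 2 of 3, and in *hoxcb* 1 of 4, beside 49.5% of all genes. With position subtracted, the lower genes were 10 of 11 in *hoxca*, 7 of 11 in *hoxba*, 3 of 5 in *hoxab*, 3 of 7 in *hoxaa*, 4 of 6 in *hoxda*, 1 of 3 in *hoxbb* and 2 of 4 in *hoxcb*, beside 43.9% of all genes. None of these genes was called, and the median difference of *hoxca* was -0.21 as deposited and -0.05 with position subtracted.

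Genes beside the clusters gave a level for the same chromosome regions. The 3 nearest measured genes on each side and the 2 genes that overlapped a cluster's span, 44 in all, had a median level of 0.86, close to the 0.71 of all named genes. Of them 34 were above the Hox median, which lay at percentile 30.7 of all named genes. Among neighbours, the Cbx genes, which encode heterochromatin proteins, lay at 5.41 (*cbx3a*), 4.79 (*cbx5*), 4.36 (*cbx1a*) and 1.72 (*cbx3b*), and the Hnrnp genes, which encode RNA-binding proteins, at 6.63 (*hnrnpa1b*), 5.19 (*hnrnpa1a*) and -0.85 (*hnrnpa3*). None of the 44 was called (lowest adjusted p = 0.694, limma), and 4 had an unadjusted p below 0.05, beside 6.93% of all genes.

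Among these neighbours were the Evx homeobox genes, which lie beside the posterior ends of Hox clusters and are used in ventral and posterior mesoderm. *evx1*, beside *hoxa13a*, had 8.73, 8.29 and 9.15 in the *ndr1*-injected arrays and 7.81, 7.77 and 7.36 in the control-injected arrays. All *ndr1*-injected values were higher, by 1.08 ± 0.30 (unadjusted p = 0.0081, adjusted p = 0.694), and by 0.60 ± 0.24 with position subtracted. *eve1*, beside *hoxb13a*, had 9.51, 8.57 and 8.26 in the *ndr1*-injected arrays and 7.65, 6.28 and 8.47 in the control-injected arrays, with overlap and a difference of 1.31 ± 0.59 (0.90 ± 0.42 with position subtracted). The Hox genes next to them differed by -0.87 ± 0.50 (*hoxa13a*) and 0.19 ± 0.49 (*hoxb13a*, -0.06 ± 0.31 with position subtracted), and no difference between neighbours was tested.

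Factors known to induce Hox genes were then described from a list chosen by name, of which 20 of 23 genes were measured. The list also held *cyp26a1*, whose enzyme removes retinoic acid, and the neighbours *evx1* and *eve1*, so its counts do not describe inducers alone. None was called as deposited (lowest adjusted p = 0.112). At an unadjusted p below 0.05, 5 were higher, *evx1* among them, beside 4.34% of all genes. At that threshold 2 were lower, *cyp26a1* and *gdf11* (-0.77 ± 0.27), beside 2.59%. With position subtracted 3 were called, all higher, beside 0.111% of all genes. These were *tbxta*, *fgf8a* and *fgf3*. *tbxta*, the Brachyury gene of the margin, had 13.47, 12.79 and 12.71 in the *ndr1*-injected arrays and 10.64, 10.38 and 10.69 in the control-injected arrays. Its difference was 2.42 ± 0.28 as deposited (limma, adjusted p = 0.112) and 2.72 ± 0.27 with position subtracted (adjusted p = 0.012). *fgf8a*, which encodes an Fgf ligand of the margin, had 12.15, 11.91 and 12.05 in the *ndr1*-injected arrays and 9.86, 8.74 and 9.35 in the control-injected arrays. It differed by 2.72 ± 0.32 as deposited (limma, adjusted p = 0.112) and by 2.67 ± 0.19 with position subtracted (adjusted p = 0.0028). *fgf3*, which encodes another Fgf ligand, had 11.50, 11.51 and 11.08 in the *ndr1*-injected arrays and 9.93, 9.27 and 8.24 in the control-injected arrays. It differed by 2.22 ± 0.43 as deposited (limma, adjusted p = 0.486) and by 2.66 ± 0.28 with position subtracted (adjusted p = 0.015). For all 3 genes, every *ndr1*-injected array was above every control-injected array by more than 1 log2 unit.

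The Cdx genes, direct activators of posterior Hox genes, spanned the array median: mean levels were 0.52 (*cdx1b*), -0.52 (*cdx1a*) and -1.44 (*cdx4*), with differences between -0.33 and 0.38 (-0.13 and 0.25 with position subtracted). *aldh1a2*, which encodes the retinoic acid-making enzyme, lay at 0.10 with a difference of -0.56 ± 0.46 (0.05 ± 0.24 with position subtracted). *cyp26a1*, which encodes the enzyme that removes retinoic acid, was bright. It had 12.17, 12.28 and 11.95 in the *ndr1*-injected arrays and 12.91, 12.76 and 12.64 in the control-injected arrays, without overlap (-0.64 ± 0.22, adjusted p = 0.711).

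**Figure D5:**
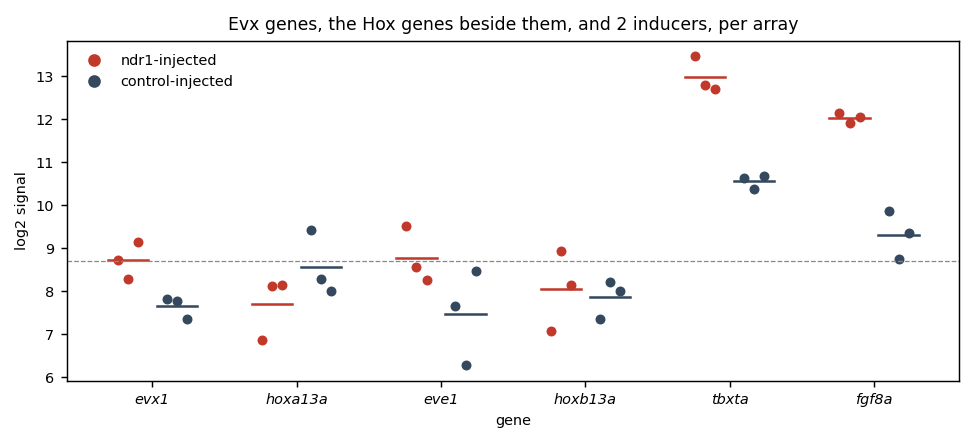
Log2 signal (vertical axis) per array of the Evx genes, the Hox gene beside each, and the inducer genes *tbxta* and *fgf8a* (horizontal axis), *ndr1*-injected in red to the left and control-injected in blue to the right, with lines at group means and the array median dashed. *tbxta* and *fgf8a* are separated by more than 1 log2 unit, *evx1* by less, and the other genes overlap.

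The proteins that bind DNA together with Hox factors belong to the TALE class, and 13 of 14 listed genes were measured. *pbx4*, the main early Pbx gene of zebrafish, had a mean level of 2.96, *pknox1.1* 2.42 and *pbx2* 2.38, and these 3 lay above the array median in all 6 arrays. The Meis genes lay between -1.28 and 0.20. No TALE gene was called. At an unadjusted p below 0.05, 1 was higher, *meis1a* (0.85 ± 0.35, limma, adjusted p = 0.712), beside 4.34% of all genes. With position subtracted *meis1a* differed by 0.38 ± 0.26 and did not pass. In that setting *pbx4* was higher (0.66 ± 0.20, unadjusted p = 0.012), beside 4.21% of all genes. *pbx3a* was lower there (-0.62 ± 0.23, unadjusted p = 0.030), beside 1.68%, and neither was called.

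Genes of the Polycomb complexes had a median level of 2.1, with 14 of 18 measured genes (of 25 listed) above the array median in all arrays, among them *cbx2* (4.28), *bmi1a* (3.84) and *ezh2* (3.77), which encodes the enzyme that methylates histone H3 at Hox loci. Trithorax genes had a median of 2.72, with 10 of 11 above. In both lists 0 genes were called and 0 had an unadjusted p below 0.05, beside 6.93% of all genes. With 18 and 11 genes such counts say little. Median differences were 0.01 and -0.09. With position subtracted *cbx2* was higher by 0.68 ± 0.27 (limma, unadjusted p = 0.033, adjusted p = 0.789). Median signals of both classes of Hox regulators were thus well above that of the Hox genes.

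Homeobox genes outside the clusters were counted in the same way. Of 10 organizer and mesendoderm homeobox genes 1 was called, *gsc*, a marker of the organizer, at 14.069, 13.995 and 14.288 in the *ndr1*-injected arrays and 11.255, 10.611 and 10.776 in the control-injected arrays (3.24 ± 0.26, adjusted p = 0.0401). A total of 5 of the 10 had an unadjusted p below 0.05, all higher (4.34% of all genes), and the list's median difference was 1.17. Of the other Antennapedia-class genes 0 of 43 were called and 4 were higher at an unadjusted p below 0.05, and of the ParaHox genes 0 of 6 passed either threshold.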

How the data were processed

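The deposited table holds log2 signal per feature and array, qspline normalised by the authors. The arrays were Agilent zebrafish arrays of 1 colour (Alexa Fluor 555, 15 µg of total RNA). That the scale is log2 was read from the range, 4.92 to 16.3. No source used here names the background correction, detection calls, slides or scan days. Control features were not identifiable, and all 45220 features were kept. Of these, 21061 were listed with 1 gene symbol and were used for the genes. The other 24159 had no symbol, or several, and were not. Symbols were updated through Entrez numbers (20133 features) or accessions (409), and 519 kept the listed symbol. Probe and promoter sequences were not analysed here.

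Members and gene lists were chosen with earlier results of these data known. The fit over 14434 genes used limma 3.58.1 in R 4.3.3 (lmFit, eBayes) without covariates and took Benjamini-Hochberg adjusted p-values. Its code was checked on simulated data with independent errors. These lacked the deviations that nearby features share, so the check does not tell how the fit behaves on the real arrays. Values on an array take steps: a median of 20 to 80 features shared the exact value of a Hox feature. Values per array were given for Hox genes with any call, with groups that did not overlap and p below 0.05, the 5 highest and 3 lowest levels, the 3 largest differences each way and paralogue group 1, and from the other lists for called genes and up to 3 with the smallest p. *hoxa11a*, *evx1*, *eve1*, *ndr1* and the other genes named beyond this rule were picked with their values already seen. Alternatives were a replicate block, other normalisations, feature choices, variance models, array weights, a filter on dim features, array position and each array left out. The cluster order of genes was taken from GRCz12tu, and no coordinates were used.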

Additional observations from a re-analysis of the deposited data

How the results depend on the processing

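The number of called Hox genes was 0 under every alternative, also at an adjusted p of 0.1. Few genes of any kind were called at an adjusted p below 0.05: 0 with each array left out, and at most 27 under any alternative. A Hox count of 0 therefore says little about the Hox genes. Over the 15 genes of the naming rule the lowest adjusted p under any alternative was 0.358 (limma). Same-numbered arrays deviated with correlations of 0.17, -0.10 and 0.02, within the range of differently numbered ones (-0.22 to 0.21). Deviations shared by nearby features enter these correlations, so they cannot tell whether samples were paired by number. With a replicate block 0 Hox genes were called, the lowest adjusted p was 0.707 (limma), and 0 of all genes were called, against 3. The block lowered the SE of *hoxb6a* (0.75 to 0.23) and *hoxb6b* (0.50 to 0.25). It raised that of others, such as *hoxa13a* (0.50 to 0.59) and *hoxb1a* (0.43 to 0.49). The filter on dim features left 39 Hox genes.

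Genes higher at an unadjusted p below 0.05 (1 as reported) numbered 0 with an intensity trend and robust variance, 3 with array weights, 0 and 1 with position subtracted over windows of 9 and 25, and 0 to 2 without 1 array. Genes lower (1 as reported) numbered 0 with the trend, 2 with the dimmest feature, 0 and 1 with position subtracted, and 0 to 3 without 1 array. The counts changed without *ndr1*-injected replicate 2 or 3 and without each control-injected replicate. The share of all genes at that p, in either direction, changed too. It was 6.93% as reported, 7.38% with the trend, 8.67% with array weights and 7.93% with the dimmest feature. With position subtracted it was 5.89% and 5.90%, and without 1 array 3.55% to 11.75%. The changing counts are therefore not read as a trait of Hox genes.

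The median difference of -0.21 became -0.079 with the mean of all features, -0.026 with the dimmest feature, -0.052 and -0.069 with position subtracted over windows of 9 and 25, and -0.26 to -0.024 without 1 array (-0.024 without control-injected replicate 3). The median level in *ndr1*-injected arrays (-0.37) became -0.092 with the filter on dim features, -0.73 with the mean of features, -1.18 with the dimmest and -0.22 and -0.24 with position subtracted. In control-injected arrays (-0.11) it became 0.16 with the filter, -0.69 and -1.20. Genes above the array median in all 6 arrays (4) numbered 2 with the mean of features, 1 with the dimmest, and 12 and 10 with position subtracted. The shares of all genes above the array median were not counted in these settings.

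Among the 15 genes of the naming rule, differences changed sign with the dimmest feature in *hoxa2b* (0.018), *hoxa4a* (-0.49), *hoxb10a* (0.66), *hoxc1a* (0.14) and *hoxc3a* (-0.33), with the mean of features in *hoxc3a* (-0.21), with array weights in *hoxc1a* (0.026), and with position subtracted in *hoxb1a* (0.064), *hoxc13b* (-0.083) and *hoxc3a* (-0.048 and -0.061). Leaving out 1 array changed the sign in *hoxa1a* (-0.76 to 0.52), *hoxa9b* (-0.58 to 0.22), *hoxb6a* (-1.13 to 0.21), *hoxb8a* (-0.72 to 0.24), *hoxc1a* (-0.65 to 0.675) and *hoxc3a* (-0.23 to 0.70). The causes were not tested.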

Other observations

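The genes whose values over the 6 arrays ran most like those of *hoxb10a*, the Hox gene with the smallest p, were *lman2lb* (Pearson's r = 0.993), *clptm1l* (0.992), *pdcd4a* (0.981) and *stom* (0.971), beside 1 gene known only by a clone name (0.980). A total of 72 genes (0.499%) had r above 0.9 with it, and with 6 arrays such values are given only as a description.

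Among the 44 genes beside the clusters, *jazf1b*, beyond the posterior end of *hoxab*, was 1.06 ± 0.31 log2 units higher in *ndr1*-injected embryos, and *copz2*, beyond the anterior end of *hoxba*, 0.56 ± 0.21 higher (limma, adjusted p = 0.710 and 0.711). *atf2*, beyond the posterior end of *hoxda*, differed by -0.86 ± 0.28 (adjusted p = 0.711). With position subtracted the differences were 0.50 (*jazf1b*), -0.03 (*copz2*) and -0.06 (*atf2*).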
